A study of Homo sapiens with 8 samples.

Results

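The control libraries of human embryonic stem cells of the line H9 were set against the control libraries of HEK293T cells under sodium arsenite, to describe the genes that identify each line. These are 4 of the 8 libraries of the series, taken by their labels. Polyadenylated RNA was sequenced from 2 H9 libraries that carried a control shRNA and from 2 HEK293T libraries that carried a control siRNA and were treated with sodium arsenite, an oxidative stressor whose dose and duration the labels do not give. The 4 libraries left out carried an shRNA or siRNA against eIF2A, an initiator tRNA-binding protein, in the same 2 lines, and serve here as a second look at the line difference. H9 was derived from a human blastocyst and is a single established line. HEK293T was derived from embryonic kidney, carries adenovirus genes and the SV40 large T antigen, and is an established line too. The labels place no arsenite on H9 and no untreated library on HEK293T, so the line, arsenite and shRNA against siRNA differ together in every comparison below and cannot be told apart. Each group holds a set 1 and a set 2; the labels explain neither and name no separate cultures, and every p-value therefore reflects the variation between these libraries, part or all of which may be technical. Genes on chromosomes X and Y were left out of every count and every named gene.

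Pluripotent stem cells are held in a self-renewing state by a small circuit of transcription factors, chiefly OCT4 (the product of POU5F1), SOX2 and NANOG, which bind many of the same regulatory elements and one another's genes. Human embryonic stem cells grow as an epithelium, depend on FGF and on activin or Nodal signals, and resemble the primed state of the embryo after implantation. RNA-binding proteins are part of their signature: LIN28A blocks maturation of let-7 microRNAs, and L1TD1 is an RNA-binding protein derived from a LINE-1 element. HEK293T cells express large T antigen, which binds p53 and the retinoblastoma proteins, and have been reported to carry neuronal as well as renal features.

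The 250 bases before the start site are shown for 6 genes whose levels separate the lines below: L1TD1, DNMT3B, SOX2 and NANOG, all higher in H9, and CDX2 and HOXD13, both at 0 counts in H9. The sequences are those of RefSeq on GRCh38.p14, written 5′ to 3′ on the strand of the gene, with every CG dinucleotide, the site of DNA methylation, in capitals. L1TD1 lies at chr1:62194599-62194848 and NANOG at chr12:7789152-7789401, both on the plus strand. The windows of DNMT3B at chr20:32779602-32779851, SOX2 at chr3:181711675-181711924 and HOXD13 at chr2:176092471-176092720 are on the plus strand too. The CDX2 window at chr13:27969316-27969565 is on the minus strand.
L1TD1: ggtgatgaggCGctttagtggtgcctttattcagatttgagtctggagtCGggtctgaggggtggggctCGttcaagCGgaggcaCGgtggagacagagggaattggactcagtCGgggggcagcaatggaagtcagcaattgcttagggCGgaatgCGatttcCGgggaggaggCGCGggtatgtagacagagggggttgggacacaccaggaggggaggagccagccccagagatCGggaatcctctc
DNMT3B: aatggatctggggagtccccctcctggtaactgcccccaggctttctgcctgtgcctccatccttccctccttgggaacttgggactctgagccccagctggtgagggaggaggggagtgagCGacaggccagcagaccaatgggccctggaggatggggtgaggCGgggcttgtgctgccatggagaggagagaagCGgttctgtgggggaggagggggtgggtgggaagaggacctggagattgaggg
SOX2: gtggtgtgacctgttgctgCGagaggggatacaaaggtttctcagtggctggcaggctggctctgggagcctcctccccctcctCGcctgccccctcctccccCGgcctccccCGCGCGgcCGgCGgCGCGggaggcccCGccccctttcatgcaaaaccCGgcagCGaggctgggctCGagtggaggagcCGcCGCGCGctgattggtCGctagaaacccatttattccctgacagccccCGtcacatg
NANOG: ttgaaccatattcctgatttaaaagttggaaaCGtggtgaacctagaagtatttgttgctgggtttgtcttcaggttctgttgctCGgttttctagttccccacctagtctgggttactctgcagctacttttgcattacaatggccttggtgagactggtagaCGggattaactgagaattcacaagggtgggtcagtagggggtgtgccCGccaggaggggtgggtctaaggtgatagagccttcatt
CDX2: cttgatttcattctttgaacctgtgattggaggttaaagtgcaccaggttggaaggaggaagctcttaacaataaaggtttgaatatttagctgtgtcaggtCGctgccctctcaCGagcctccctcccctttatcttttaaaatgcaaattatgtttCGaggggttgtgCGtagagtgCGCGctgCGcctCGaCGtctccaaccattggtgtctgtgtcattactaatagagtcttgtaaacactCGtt
HOXD13: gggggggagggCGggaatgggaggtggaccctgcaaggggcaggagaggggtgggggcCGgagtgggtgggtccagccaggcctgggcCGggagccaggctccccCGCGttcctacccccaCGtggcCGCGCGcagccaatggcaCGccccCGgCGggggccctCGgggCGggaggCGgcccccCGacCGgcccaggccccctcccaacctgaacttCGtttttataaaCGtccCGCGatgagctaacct
The windows held 12 CG dinucleotides for L1TD1, 3 for DNMT3B, 20 for SOX2, 4 for NANOG, 10 for CDX2 and 21 for HOXD13, where the median over the 10937 tested autosomal genes with a window was 21 (quartiles 14 and 28). The octamer core ATGCAAA, the sequence recognised by OCT factors, was searched on both strands. It stood once in the windows of SOX2 (from base −100, gene strand), NANOG (from base −120, opposite strand) and CDX2 (from base −107, gene strand) and not in the other 3. Among all 10937 windows, 309 (2.83%) held it. A match is a description of the letters and not evidence of binding.

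Gene counts were 23043164 and 21945814 in the H9 libraries and 22844053 and 32318668 in the HEK293T libraries. Levels are given as CPM, the count of a gene scaled to the size of its library. A floor of 3 counts corresponds to 0.135 and 0.143 CPM in H9 and 0.125 and 0.0897 CPM in HEK293T. The libraries of a group lay close together: the median absolute log2 difference between them was 0.079 in H9 and 0.098 in HEK293T. The HEK293T pair nevertheless differed by more than sampling noise, with a chi-square of 4.91 per degree of freedom against 1.51 for the H9 pair. Reads assigned to no feature made up 18.39 to 18.84% in H9 and 15.59 to 17.68% in HEK293T.

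Most genes differed between the lines. Of 13565 autosomal genes tested, 5758 (42.4%) were called higher in H9 and 5577 (41.1%) higher in HEK293T by edgeR's quasi-likelihood test at a Benjamini-Hochberg adjusted p under 0.05. A call alone therefore says little about a gene, and 3303 of the called genes differed by less than 1.5-fold. At least 2-fold differences were called for 3099 genes (22.8%) higher in H9 and for 2547 (18.8%) higher in HEK293T, which is the background for every list below. Large differences lay more often on the H9 side: 589 genes were at least 32-fold higher in H9 and 205 in HEK293T, and 122 and 42 were at least 256-fold higher, with genes at 0 taken at a lower bound. The median log2 fold change of all genes, H9 minus HEK293T, was 0.005, and it moved to −0.16 when libraries were scaled by their upper quartile. Fold changes are given below as log2 values ± a standard error worked back from the test, the absolute log2 value over the square root of its F statistic. For genes with few counts in one line this figure understates the counting error and should not be read as an interval. For a gene at 0 counts in one line only a lower bound is given, against the floor of 3 counts in each library, and for one with 1 to 20 counts there the ratio of pooled levels with its exact 95% interval, which covers counting error only.

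**Figure D1:**
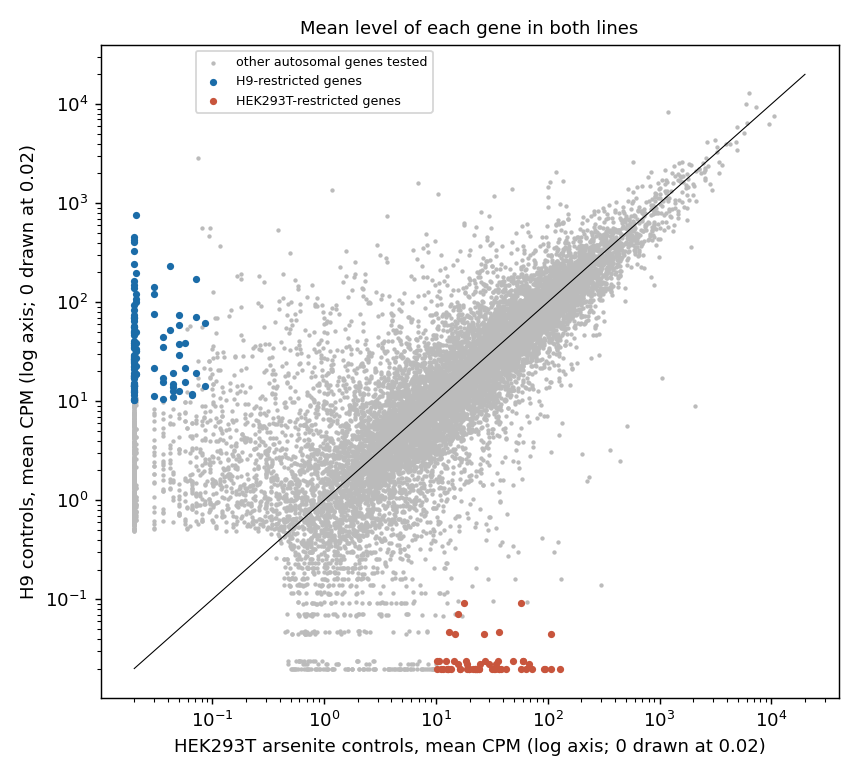
Mean level of each tested autosomal gene in the HEK293T arsenite controls (horizontal, CPM, log axis) and in the H9 controls (vertical, CPM, log axis), with genes at 0 drawn at 0.02 and the line of equal levels in black. The 111 H9-restricted genes (blue) and 58 HEK293T-restricted genes (red) had at least 10 CPM in both libraries of one line and under 0.1 CPM in both of the other.

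The 4 marker genes of pluripotent stem cells chosen for this comparison were each higher in H9. They were chosen with earlier results of these data known, so their direction is no independent check of the label. LIN28A, the let-7 antagonist, read 2855 and 2884 CPM in H9 and 0 and 0.149 CPM in HEK293T, a ratio of 32939-fold (95% counting interval 14114 to 101447); all 5 HEK293T counts came from one library. L1TD1 read 71 and 68.4 CPM in H9 and 0 and 0 CPM in HEK293T and was at least 649-fold higher in H9. DNMT3B, the de novo DNA methyltransferase of early embryos, read 1657 and 1667 CPM in H9 and 138 and 138 CPM in HEK293T, a log2 fold change of 3.59 ± 0.046. SOX2, a core pluripotency factor that neural progenitors use as well, read 83.3 and 78 CPM in H9 and 4.26 and 5.5 CPM in HEK293T (4.02 ± 0.084). LIN28A and L1TD1 were close to or at 0 in HEK293T, while DNMT3B and SOX2 were present there at a lower level. A difference between the lines is common, as 83.6% of all autosomal genes tested were called in one direction or the other.

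**Figure D2:**
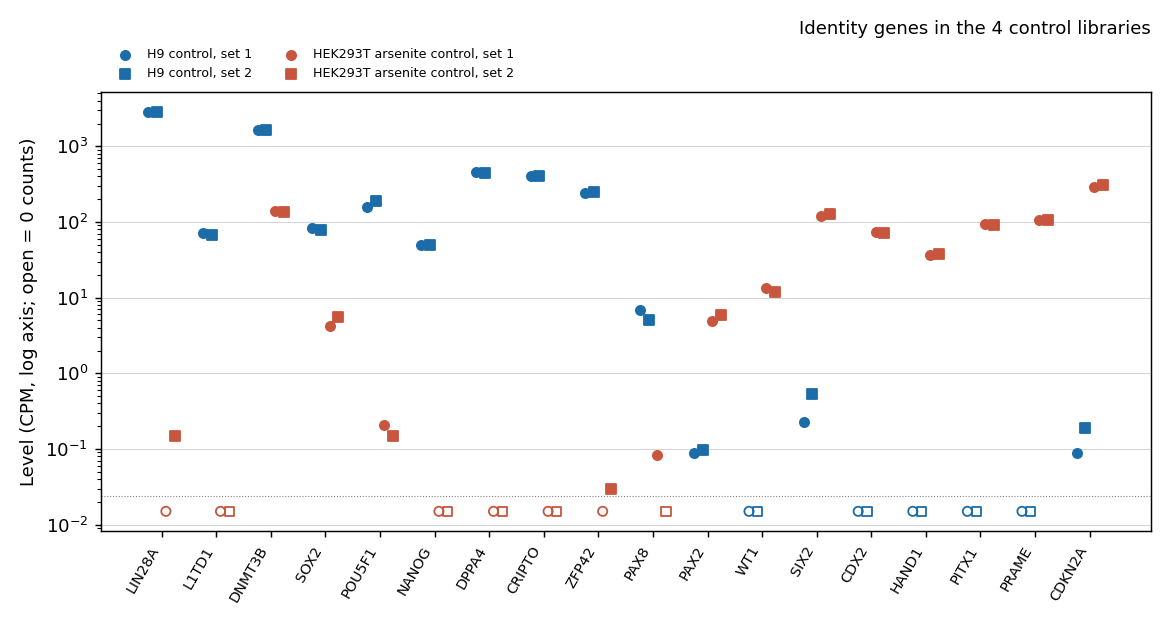
Level of 18 identity genes in each control library (vertical, CPM, log axis; open symbols, 0 counts), H9 in blue and HEK293T in red, circles for set 1 and squares for set 2. The genes from LIN28A to PAX8 lie higher in both H9 libraries, and those from PAX2 to CDKN2A lie higher in both HEK293T libraries.

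All 24 pluripotency factors tested were called higher in H9, 22 of them by at least 2-fold, with a median log2 fold change of 4.33. Members at or near 0 in HEK293T, such as DPPA4, NANOG, ZFP42 and PRDM14, passed the filter on low counts through H9 alone. Their direction was therefore fixed. The same holds for members at or near 0 in HEK293T of the Nodal, primed, epithelial and other lists below. POU5F1 read 156 and 189 CPM in H9 and 0.209 and 0.149 CPM in HEK293T, a ratio of 988-fold (95% counting interval 537 to 2062), but the gene has near-identical pseudogene copies and lies in a stretch of chromosome 6 where many genes were listed at 0, so its level is uncertain. NANOG, which has pseudogene copies as well, read 50.1 and 49.1 CPM in H9 and 0 and 0 CPM in HEK293T and was at least 462-fold higher in H9. DPPA4, a chromatin-associated protein of pluripotent cells, read 460.5 and 440.3 CPM in H9 and 0 and 0 CPM in HEK293T (at least 4190.0-fold). ZFP42, the stem cell marker REX1, had 1 count in HEK293T against 245 and 246 CPM in H9. PRDM14, a transcriptional regulator of pluripotency and germ cells, read 106 and 109.8 CPM in H9 and 0.0418 and 0 CPM in HEK293T, and ZSCAN10, a zinc finger factor of embryonic stem cells, read 529.9 and 531 CPM in H9 and 0.417 and 0.359 CPM in HEK293T (10.42 ± 0.093). VRTN read 542 and 575 CPM in H9 and had 6 counts in total in HEK293T. The smallest differences were those of UTF1, 3.59 and 3.2 CPM in H9 and 1.71 and 2.15 CPM in HEK293T (0.79 ± 0.2), and ZNF398, 45.7 and 40.5 CPM in H9 and 25.2 and 27.7 CPM in HEK293T (0.70 ± 0.069), both under 2-fold.

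Among 18 LIN28-related and oncofetal RNA-binding proteins, 12 were called higher in H9, 7 of them by at least 2-fold, and 3 were called higher in HEK293T, none by 2-fold; the median was 0.54. The 2 LIN28 paralogues differed from each other in pattern. LIN28B, which also blocks let-7, read 16 and 13.7 CPM in H9 and 12 and 13.9 CPM in HEK293T, with an adjusted p of 0.0713 by edgeR's quasi-likelihood test, against the large difference of LIN28A. Per transcript length LIN28A stood at 716 RPKM in H9. TRIM71, itself a let-7 target and an RNA-binding ubiquitin ligase, read 102 and 100.1 CPM in H9 and 2.46 and 2.54 CPM in HEK293T (5.33 ± 0.086). HMGA1, a chromatin protein of growing embryonic cells, read 8381 and 8164 CPM in H9 and 1152 and 1227 CPM in HEK293T (2.80 ± 0.045). The epithelial splicing regulators were at or under 0.42 CPM in HEK293T: ESRP1 read 50.8 and 50.1 CPM in H9 and 0.0418 and 0 CPM in HEK293T and ESRP2 88.6 and 82.7 CPM in H9 and 0.376 and 0.419 CPM in HEK293T. TUT4, the uridylyltransferase that LIN28A recruits, read 5.43 and 4.59 CPM in H9 and 5.76 and 5.08 CPM in HEK293T (−0.10 ± 0.14) and was not called.

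Of 11 DNA methylation and demethylation enzymes tested, 8 were called higher in H9 and 3 higher in HEK293T, with 3 and 1 past 2-fold and a median of 0.38. The de novo enzymes led the H9 side: DNMT3A read 113 and 111 CPM in H9 and 10.2 and 11.6 CPM in HEK293T (3.35 ± 0.067), and DNMT3B is given above. UHRF1, which brings the maintenance methyltransferase to newly copied DNA, was higher in HEK293T, at 110.5 and 111 CPM in HEK293T and 58.9 and 58.3 CPM in H9 (−0.92 ± 0.052). TET3, a demethylation enzyme, read 18.2 and 18.6 CPM in H9 and 9.39 and 9.84 CPM in HEK293T. TET2 was low in both lines, at 1.96 and 1.41 CPM in HEK293T and 0.584 and 0.383 CPM in H9.

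In the Nodal, activin and FGF signalling list, 21 of 25 tested genes were called higher in H9, 17 by at least 2-fold, and 2 were called higher in HEK293T, 1 by 2-fold; the median was 1.91. CRIPTO, the Nodal co-receptor, read 402 and 404 CPM in H9 and 0 and 0 CPM in HEK293T, at least 3750.0-fold higher. The Nodal inhibitors LEFTY1 and LEFTY2, themselves targets of the pathway, read 28.2 and 29.6 and 13.6 and 16.2 CPM in H9, against 9 and 6 counts in HEK293T. GDF3, a TGF-beta family ligand, read 11.4 and 9.9 CPM in H9 and 0 and 0 CPM in HEK293T. Feedback inhibitors that FGF signalling induces were higher in H9 as well: DUSP6 read 101 and 92.8 CPM in H9 and 0.585 and 0.359 CPM in HEK293T (7.73 ± 0.12) and SPRY4 134 and 138 CPM in H9 and 0.626 and 0.538 CPM in HEK293T (7.88 ± 0.11). The receptor gene FGFR3 went the other way, at 84.1 and 79.2 CPM in HEK293T and 30.3 and 31.7 CPM in H9 (−1.40 ± 0.06). ACVR2A, an activin receptor, read 2.92 and 2.49 CPM in H9 and 2.46 and 2.54 CPM in HEK293T and was not called.

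The primed and naive lists differed in direction. Of 13 tested primed genes, 12 were called at least 2-fold higher in H9 and VIM was called higher in HEK293T, with a median of 4.49; 9 members of this list also belong to other lists. THY1, a surface glycoprotein of primed cells, read 759.6 and 769 CPM in H9 against 1 count in HEK293T. SFRP2, a secreted WNT antagonist, read 574 and 562 CPM in H9 and 0.0418 and 0.12 CPM in HEK293T, and CD24, a surface sialoglycoprotein, 1376 and 1325 CPM in H9 and 1.25 and 1.11 CPM in HEK293T (10.17 ± 0.081). CRABP1, which binds retinoic acid, read 419.6 and 426 CPM in H9 and 0 and 0 CPM in HEK293T (at least 3936-fold). SOX11 read 35.4 and 34.8 CPM in H9 and 0 and 0 CPM in HEK293T. Of 14 naive genes only 7 passed the filter on low counts; 2 of these were at least 2-fold higher in H9 and 4 in HEK293T, with a median of −2.02 that turned to 0.32 without the filter, and 8 of the 14 were under 1 CPM in both lines. TBX3 read 47.7 and 50.3 CPM in HEK293T and 0 and 0.0478 CPM in H9, KLF5 7.72 and 8.28 CPM in HEK293T and 0.314 and 0.191 CPM in H9 and KLF4 5.59 and 4.66 CPM in HEK293T and 0.584 and 0.526 CPM in H9. SUSD2, a naive surface marker, was higher in H9, at 21.9 and 24.8 CPM in H9 and 1.13 and 1.17 CPM in HEK293T (4.33 ± 0.14).

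Epithelial junction and keratin genes had the highest median of the lists with more than 1 tested member, 4.66: 27 of 29 were called higher in H9, 25 by at least 2-fold. CDH1, E-cadherin, read 116 and 118 CPM in H9 and 3.21 and 3.38 CPM in HEK293T (5.14 ± 0.081). CLDN6, a tight junction claudin of early embryonic epithelium, read 1549 and 1616 CPM in H9 and 6.8 and 6.91 CPM in HEK293T (7.85 ± 0.065). KRT19 read 195 and 201 CPM in H9 and 0.0418 and 0 CPM in HEK293T and KRT7 24.6 and 25.3 CPM in H9 and 0 and 0 CPM in HEK293T. ST14, a membrane serine protease of epithelia, read 98.5 and 105 CPM in H9 and 0.585 and 0.419 CPM in HEK293T (7.69 ± 0.12), and PODXL, the sialomucin that carries stem cell surface epitopes, 757 and 733 CPM in H9 and 29.1 and 30 CPM in HEK293T (4.66 ± 0.052). PKP2, a desmosomal plaque protein, was the member called higher in HEK293T, at 8.14 and 8.55 CPM in HEK293T and 3.28 and 3.16 CPM in H9 (−1.38 ± 0.14), and DSP, another desmosomal protein, was not called, at 10 and 10.4 CPM in H9 and 9.6 and 10.4 CPM in HEK293T.

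Mesenchymal genes were split. Of 19 tested, 10 were called higher in H9 and 9 higher in HEK293T, 8 and 6 of them by at least 2-fold, with a median of 0.37. The transcription factors SNAI2 and TWIST1, which repress epithelial genes in other settings, were higher in HEK293T: SNAI2 read 29.1 and 31.1 CPM in HEK293T and 0.449 and 0.909 CPM in H9 (−5.48 ± 0.16) and TWIST1 12.5 and 12.5 CPM in HEK293T and 0.0449 and 0.191 CPM in H9. TGFBI, a matrix protein, went the other way at 30.4 and 28.3 CPM in H9 and 0 and 0 CPM in HEK293T, as did TAGLN, an actin-binding protein, at 276 and 288 CPM in H9 and 3.46 and 3.71 CPM in HEK293T (6.29 ± 0.072). CDH2, N-cadherin, read 18.2 and 16.2 CPM in H9 and 20 and 19.5 CPM in HEK293T (−0.20 ± 0.084), a small difference whose call was lost with DESeq2 (−0.18), without replicate 2 of H9 (−0.12) and with a GC and length trend removed (−0.02), and which turned to 0.72, higher in H9, in the knockdown libraries. In the list of laminins, collagens and integrins, 21 of 33 were called higher in H9 and 8 in HEK293T, 15 and 8 by at least 2-fold, with a median of 0.77. ITGA6, a laminin receptor subunit, read 27.7 and 27.7 CPM in H9 and 3.21 and 3.23 CPM in HEK293T (3.10 ± 0.11), COL5A2 7.32 and 7.75 CPM in H9 and 0.626 and 0.568 CPM in HEK293T (3.66 ± 0.21), and the basement membrane protein NID2 30.7 and 28.6 CPM in HEK293T and 4.45 and 3.3 CPM in H9 (−2.93 ± 0.11). ITGAV, the integrin alpha V subunit, read 3.59 and 2.82 CPM in H9 and 3.01 and 2.54 CPM in HEK293T and was not called.

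Fibroblast markers were examined because feeder cells can accompany stem cell cultures; the labels do not say whether feeders were used. Of 12 markers 7 passed the filter, 6 of them at least 2-fold higher in H9 and 1 higher in HEK293T, with a median of 3.83. Of the 12, 4 had 0 counts in both H9 libraries, among them the matrix genes DCN and LUM, which were named after their values were seen. COL3A1 read 0.314 and 0.143 CPM in H9. COL6A3 was called higher in H9, with a log2 fold change of 3.83 in the fit. Whether feeder cells were present was not tested. COL1A2 read 92.6 and 94.7 CPM in H9 and 0 and 0 CPM in HEK293T, PDGFRB 32.1 and 32.1 CPM in H9 and 1.17 and 1.11 CPM in HEK293T and FBLN1 322 and 333 CPM in H9 and 122 and 119 CPM in HEK293T. The summed level of the list was 1295 and 1317 CPM in H9 and 160.5 and 157.5 CPM in HEK293T, and most of the H9 sum was THY1 and FBLN1. The blood markers PTPRC and PECAM1 were at 0 counts in all 4 libraries, and the endothelial cadherin CDH5 read 2.02 and 2.01 CPM in H9 and 0 and 0.149 CPM in HEK293T; the summed level of these 3 was 2.02 and 2.01 CPM in H9.

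Genes restricted to one line were defined by level, as at least 10 CPM in both control libraries of one line and under 0.1 CPM in both of the other. There were 111 such autosomal genes in H9, of which 53 had 0 counts in HEK293T, and 16 stand in one or more of the gene lists used here, 4 of them among the pluripotency factors. In the eIF2A knockdown libraries 84 of the 111 met the same definition. Beyond the genes above, the larger differences at this level included LRRN1, a leucine-rich repeat membrane protein (77.5 and 71.5 CPM in H9 and 0 and 0 CPM in HEK293T), and LAD1, a basement membrane filament protein (65.2 and 64.8 CPM in H9 and 0 and 0 CPM in HEK293T). MYL9, a myosin light chain, read 330.3 and 327 CPM in H9 and 0 and 0.0299 CPM in HEK293T, OCIAD2 67.2 and 74.3 CPM in H9 and 0 and 0 CPM in HEK293T and TAFA5 69.3 and 70.8 CPM in H9 and 0 and 0 CPM in HEK293T. SNURF read 141 and 159 CPM in H9 and 0 and 0 CPM in HEK293T, but its transcript overlaps SNRPN and their counts cannot be separated here. A few other H9-restricted genes, named after their values were seen, are known from DNA repair, detoxification or inflammation. MGMT, the methylguanine repair protein, read 37.1 and 39.7 CPM in H9 and 0 and 0 CPM in HEK293T, and the glutathione transferases GSTM1 and GSTT1 32.1 and 32 CPM in H9 and 0.0418 and 0 CPM in HEK293T and 47.2 and 51.6 CPM in H9 and 0 and 0 CPM in HEK293T. PYCARD, an inflammasome adaptor, read 32.8 and 37.3 CPM in H9 and 0.0418 and 0.0299 CPM in HEK293T.

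In HEK293T there were 58 restricted genes, 34 at 0 counts in H9; 42 of the 58 met the definition in the knockdown libraries, 23 were HOX genes, and 35 stand in one of the gene lists used here. HOX genes, which set position along the body axis, were on 1 side throughout. All 36 HOX genes that passed the filter, of 39 listed, were at least 2-fold higher in HEK293T, with a median of −11.57 in the fit and −6.99 with genes at 0 placed at their bound. The 2 H9 libraries together held 6 counts from HOXA genes, 2 from HOXB genes and 0 from HOXC and HOXD genes. The passing genes passed through HEK293T alone, so the direction of the 36 was fixed by their near absence from H9.

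In HEK293T all 4 HOX clusters were represented. The summed level was 179.1 and 189.5 CPM for HOXA, 267.2 and 288.2 for HOXB, 158.6 and 171.1 for HOXC and 140.9 and 142 for HOXD. At least 1 CPM was reached by 11 of 11 HOXA, 9 of 10 HOXB, 8 of 9 HOXC and 6 of 9 HOXD genes. Per transcript length the highest gene of each cluster was HOXB9 at 49.7 RPKM, HOXD13 at 42.3, HOXC4 at 28 and HOXA9 at 15.3, so the highest members were not of one paralogue group. HOXB9 read 123 and 133 CPM, at least 923-fold above H9, and HOXD13 92.6 and 96.8 CPM (at least 681-fold). HOXB13, HOXC10, HOXA11, HOXA10 and HOXD11 read from 23.6 CPM (HOXD11) to 39.6 CPM in the 2 libraries. HOXB1 was at 0 counts in both HEK293T libraries. HOXC12 and HOXD12 stayed under 1 CPM.

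**Figure D3:**
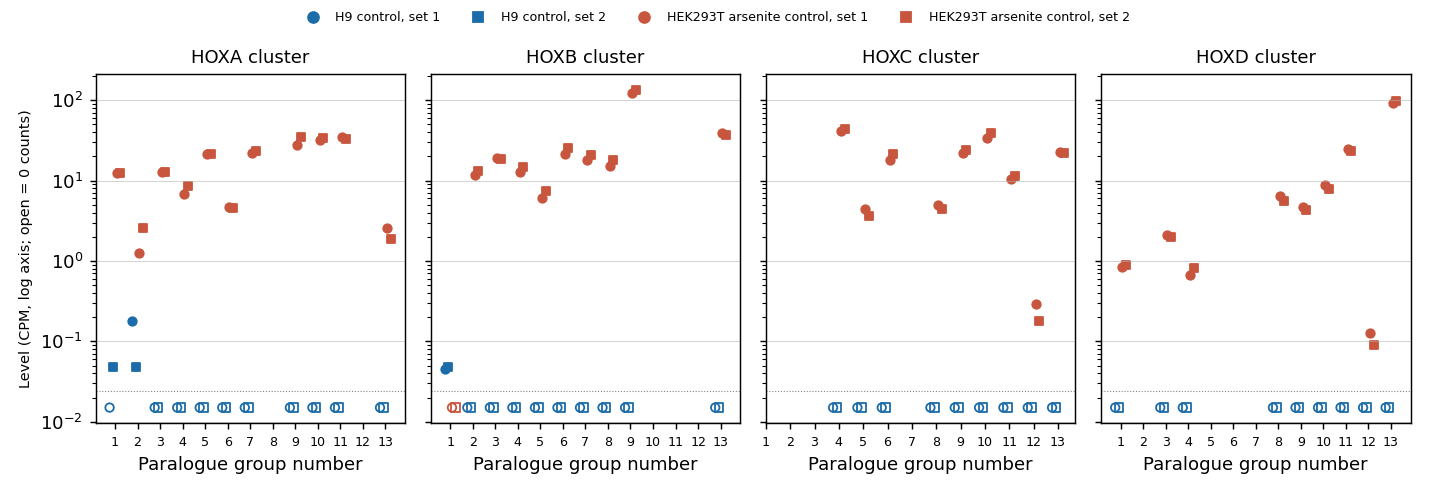
Level of each HOX gene in the 4 control libraries (vertical, CPM, log axis; open symbols, 0 counts) by paralogue group number (horizontal), with 1 panel for each cluster, H9 in blue and HEK293T in red. The H9 libraries are at 0 counts for 36 of the 39 genes, and HEK293T levels span from under 1 CPM to 133.4 CPM for HOXB9.

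Outside the HOX clusters, several HEK293T-restricted genes are known from other lineages. PITX1, a hindlimb and pituitary homeobox factor, read 94.4 and 92.6 CPM in HEK293T and 0 and 0 CPM in H9 (at least 672-fold). CDX2, a caudal factor of trophectoderm and intestine, read 73.2 and 72.5 CPM in HEK293T and 0 and 0 CPM in H9 (at least 524-fold). The T-box factor TBX1, active in the pharyngeal apparatus, read 54.4 and 61.7 CPM in HEK293T and 0 and 0 CPM in H9, and NKX2-5, a cardiac homeobox factor, 103 and 109.8 CPM in HEK293T and 0.0898 and 0 CPM in H9. PRAME, a germ cell and tumour antigen, read 106 and 106 CPM in HEK293T and 0 and 0 CPM in H9 (at least 762-fold). The H9 libraries were at or near 0 for each of these.

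Of 14 tested mesoderm and endoderm markers, 8 were at least 2-fold higher in HEK293T and 5 in H9, with a median of −3.54. HAND1 read 36.6 and 37.3 CPM in HEK293T and 0 and 0 CPM in H9, GATA4 60 and 61.2 CPM in HEK293T and 0 and 0.0478 CPM in H9 and GATA6 17.5 and 15.6 CPM in HEK293T and 0 and 0 CPM in H9, which are cardiac and endodermal factors. FOXA1, a pioneer factor of endoderm, read 5.09 and 5.53 CPM in HEK293T and 0 and 0 CPM in H9. KDR, a VEGF receptor, was higher in H9, at 27.9 and 28.1 CPM in H9 and 0.417 and 0.269 CPM in HEK293T. TBXT, the primitive streak factor brachyury, read 0.27 and 0.239 CPM in H9 and 0.334 and 0.359 CPM in HEK293T. The early differentiation marker MIXL1 read 1.93 and 1.63 CPM in H9 and 0.0835 and 0.179 CPM in HEK293T. Another, GSC, read 0.0449 and 0 CPM in H9 and 5.76 and 6.7 CPM in HEK293T. TBXT and MIXL1 were named after their values were seen, and other members of the list are not reported here.

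Of 15 autosomal trophoblast markers 9 passed the filter on low counts, 8 of them at least 2-fold higher in HEK293T and 1 in H9. The median was −8.55, or −5.72 with genes at 0 at their bound. Members at or near 0 in one line passed through the other line alone, so their direction was fixed, as for the HOX genes. This also holds for HAND1, GATA4, GATA6 and FOXA1 of the list before. TFAP2A read 33.6 and 37.9 CPM in HEK293T and 0 and 0.0478 CPM in H9, GATA2 115 and 114 CPM in HEK293T and 0.225 and 0.383 CPM in H9 and GATA3 7.35 and 7.29 CPM in HEK293T and 0 and 0 CPM in H9. KRT7, given above, was the member higher in H9. HAND1, GATA3 and KRT7 stand in other lists too, so these lists are not independent counts.

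Kidney genes were set beside the kidney label of HEK293T, and they divided. Of 25 tested kidney development genes, 15 were at least 2-fold higher in HEK293T and 6 in H9, with a median of −4.33, or −3.88 with genes at 0 at their bound. WT1, a factor of nephron progenitors and podocytes, read 13.5 and 12 CPM in HEK293T and 0 and 0 CPM in H9. SIX2, the nephron progenitor factor, read 119.7 and 127 CPM in HEK293T and 0.225 and 0.526 CPM in H9, and PAX2 4.93 and 5.89 CPM in HEK293T and 0.0898 and 0.0956 CPM in H9. OSR2 read 18.9 and 19 CPM in HEK293T and 0.0449 and 0 CPM in H9 and EYA4 6.51 and 5.83 CPM in HEK293T and 0 and 0 CPM in H9. PAX8, which is used as a marker of renal epithelium, went against the label, at 6.92 and 5.12 CPM in H9 and 0.0835 and 0 CPM in HEK293T, a ratio of 174-fold (95% counting interval 47.5 to 1440.0). RET, the receptor of the ureteric bud, was higher in H9 at 24.3 and 23.3 CPM in H9 and 1.59 and 1.91 CPM in HEK293T (3.74 ± 0.13), while its ligand gene GDNF read 2.05 and 2.03 CPM in HEK293T and 0 and 0 CPM in H9. LHX1 read 3.51 and 3.44 CPM in HEK293T and 0.0898 and 0.383 CPM in H9.

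Mature nephron genes were mostly absent from both lines: 8 of 18 passed the filter and 10 were under 1 CPM in both. Of the 8, 5 were at least 2-fold higher in H9 and 2 in HEK293T, with a median of 3.05. Among the 5 was PODXL, given above with the epithelial genes as a carrier of stem cell surface epitopes. In the knockdown libraries the numbers were 4 and 1 and the median 0.53. SCNN1A, the alpha subunit of the epithelial sodium channel, read 315 and 316 CPM in H9 and 0.543 and 0.449 CPM in HEK293T (9.32 ± 0.095), and CALB1 4.9 and 3.83 CPM in H9 and 0.0418 and 0 CPM in HEK293T. LRP2, the proximal tubule endocytic receptor megalin, read 7.01 and 7.45 CPM in HEK293T and 1.89 and 2.01 CPM in H9 (−1.90 ± 0.17), and the water channel AQP1 1.92 and 1.64 CPM in HEK293T and 0.359 and 0.239 CPM in H9.

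Neuronal and adrenal medulla genes were more often higher in H9. Of 17 tested, 12 were at least 2-fold higher in H9 and 3 in HEK293T, with a median of 2.35. The neurofilament gene NEFL was higher in HEK293T, at 92.3 and 93.2 CPM in HEK293T and 6.6 and 7.6 CPM in H9 (−3.71 ± 0.077), as was NEFM at 52.5 and 57.9 CPM in HEK293T and 4.67 and 4.54 CPM in H9 (−3.59 ± 0.092), and the factor ISL1 at 11.5 and 11.8 CPM in HEK293T and 0 and 0 CPM in H9. CHGA, the secretory granule protein chromogranin A, was higher in H9, at 221 and 229 CPM in H9 and 1.25 and 1.52 CPM in HEK293T (7.31 ± 0.086), and ENO2, the neuronal enolase, read 258 and 263 CPM in H9 and 28.8 and 28.9 CPM in HEK293T (3.17 ± 0.052). Of 13 tested neural progenitor markers, 7 were at least 2-fold higher in H9 and 5 in HEK293T, with a median of 1.37. PAX6, a neural and eye field factor, was higher in HEK293T, at 10.8 and 12.3 CPM in HEK293T and 0.135 and 0 CPM in H9. SOX1 read 4.36 and 5.31 CPM in H9 and 0 and 0 CPM in HEK293T and FABP7 26.9 and 23.9 CPM in H9 and 0.125 and 0.0598 CPM in HEK293T, both higher in H9. ELAVL2, a neuronal RNA-binding protein, read 1.89 and 1.1 CPM in H9 and 1.63 and 1.82 CPM in HEK293T and was not called.

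Of 23 cyclins, CDK inhibitors and RB family genes, 1 was at least 2-fold higher in H9 and 7 in HEK293T, with a median of −0.43. CDKN2A, which encodes the inhibitor p16 and the p53 regulator ARF, read 294 and 310.0 CPM in HEK293T and 0.0898 and 0.191 CPM in H9, a ratio of 2183-fold (95% counting interval 1003 to 5950.0). CDKN2C, the inhibitor p18, read 60 and 66.8 CPM in HEK293T and 0 and 0 CPM in H9 (at least 456-fold), and CDKN2B, the inhibitor p15, 2.5 and 1.5 CPM in HEK293T and 0 and 0.0478 CPM in H9. CDKN1C, an imprinted inhibitor, was higher in H9, at 9.88 and 9.28 CPM in H9 and 2.21 and 1.5 CPM in HEK293T (2.41 ± 0.16). CCND1 read 102 and 102 CPM in HEK293T and 34.9 and 34 CPM in H9 (−1.56 ± 0.056) and CDK6 8.85 and 10.6 CPM in HEK293T and 3.05 and 3.01 CPM in H9. E2F3, an S phase transcription factor, was not called, at 22 and 21.8 CPM in H9 and 23 and 22.9 CPM in HEK293T.

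Among 22 p53 target genes, 9 were called higher in H9 and 9 higher in HEK293T, 6 and 4 by at least 2-fold, with a median of −0.16 that turned to 0.47 in the knockdown libraries. BTG2, an antiproliferative target, read 56.3 and 60 CPM in HEK293T and 5.57 and 5.17 CPM in H9 (−3.44 ± 0.087), and POLH, a translesion polymerase, 33.1 and 33.4 CPM in HEK293T and 8.27 and 7.41 CPM in H9 (−2.08 ± 0.089). TP53I3 was higher in H9, at 91 and 92.8 CPM in H9 and 14.8 and 16 CPM in HEK293T (2.57 ± 0.064), as was GDF15, at 6.42 and 6.55 CPM in H9 and 1.29 and 1.32 CPM in HEK293T (2.31 ± 0.18). MDM2, the ubiquitin ligase of p53, read 29.9 and 30.6 CPM in HEK293T and 12.2 and 11.2 CPM in H9 (−1.37 ± 0.083) in the controls, but in the knockdown libraries it was higher in H9, with a log2 fold change of 0.72. CCNG1, a cyclin G and p53 target, read 54.8 and 50.2 CPM in H9 and 54.4 and 54.2 CPM in HEK293T and was not called in the controls.

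The immediate early, heat shock, NRF2, metallothionein and integrated stress response lists below hold genes that arsenite or other stress is known to induce. Because no untreated HEK293T library and no arsenite-treated H9 library is among the 8, the line and the treatment cannot be told apart here. Of 27 immediate early genes tested, 15 were at least 2-fold higher in HEK293T and 4 in H9, with a median of −1.21, and the summed level was 5374 and 5597 CPM in HEK293T against 642.1 and 650.5 in H9. EGR1, a zinc finger factor, read 1940.0 and 2179 CPM in HEK293T and 8.98 and 8.94 CPM in H9 (−7.84 ± 0.07). The AP-1 genes were higher as well: FOS read 521 and 496 CPM in HEK293T and 6.02 and 5.17 CPM in H9 (−6.50 ± 0.069), FOSB 346 and 369.7 CPM in HEK293T and 3.01 and 3.49 CPM in H9 (−6.78 ± 0.076) and JUN 1050.0 and 1059 CPM in HEK293T and 16.8 and 17.6 CPM in H9 (−5.94 ± 0.058). EGR3 read 15.2 and 16.1 CPM in HEK293T and 0.0449 and 0 CPM in H9. IER3, a gene in the stretch of chromosome 6 where many genes were listed at 0, went the other way, at 9.03 and 9.61 CPM in H9 and 0 and 0 CPM in HEK293T.

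**Figure D4:**
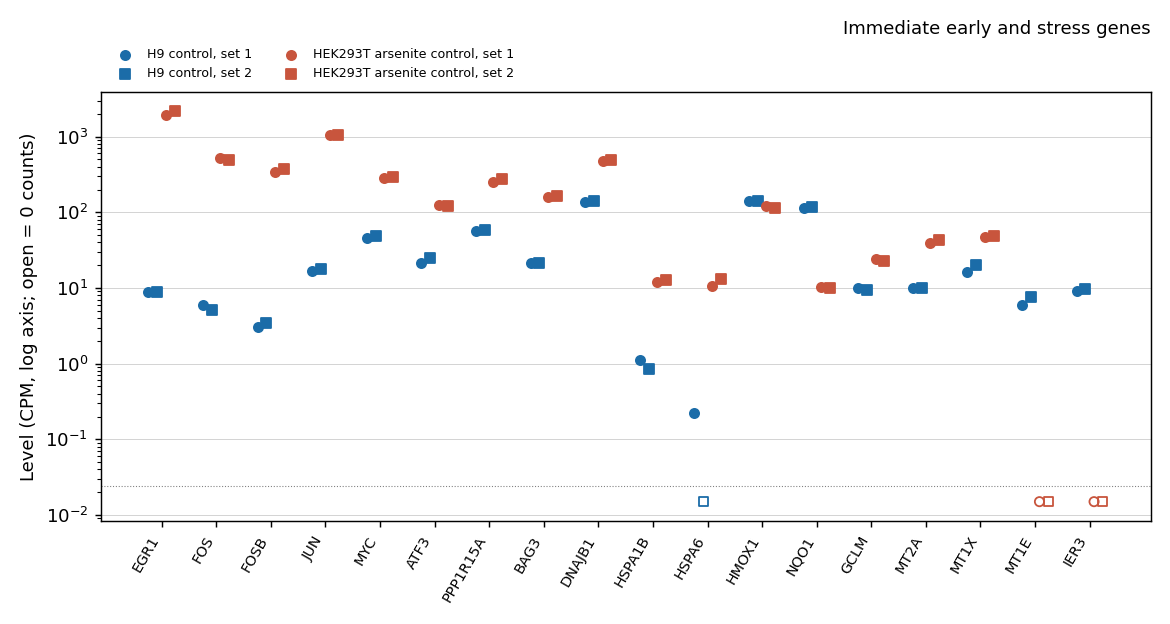
Level of 18 immediate early, stress and metal response genes in each control library (vertical, CPM, log axis; open symbols, 0 counts), H9 in blue and HEK293T in red, circles for set 1 and squares for set 2. EGR1, FOS, FOSB and JUN lie higher in both HEK293T libraries, and NQO1, MT1E and IER3 lie higher in H9.

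Heat shock genes were less uniform. Of 26 tested, 8 were at least 2-fold higher in HEK293T and 3 in H9, with a median of −0.32. The inducible chaperone HSPA6 read 10.6 and 13 CPM in HEK293T and 0.225 and 0 CPM in H9, and BAG3, a co-chaperone, 162 and 165 CPM in HEK293T and 21.6 and 21.6 CPM in H9 (−2.92 ± 0.058). DNAJB1, the inducible HSP40, read 483 and 492 CPM in HEK293T and 139 and 139.5 CPM in H9 (−1.81 ± 0.044). HSPA1B read 11.9 and 12.7 CPM in HEK293T and 1.12 and 0.861 CPM in H9 (−3.62 ± 0.17), but its near-identical copy HSPA1A had 1 count in all 4 libraries, so neither level is reliable. SERPINH1, the collagen chaperone HSP47, was higher in H9, at 894 and 921 CPM in H9 and 102 and 99 CPM in HEK293T (3.17 ± 0.046). HSF1, the heat shock transcription factor, read 190.1 and 192 CPM in H9 and 195 and 176 CPM in HEK293T and was not called.

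Of 27 tested NRF2 and antioxidant genes, 6 were at least 2-fold higher in H9 and 3 in HEK293T, with a median of 0.29. HMOX1, haem oxygenase and a classic arsenite-responsive gene, was slightly higher in H9, at 142 and 141 CPM in H9 and 122 and 114 CPM in HEK293T (0.26 ± 0.048), but the call was lost with upper-quartile scaling (0.09), and the value turned to −0.10 once a trend with GC content and length was removed and to −1.06 in the knockdown libraries. NQO1, a quinone reductase, read 113 and 118 CPM in H9 and 10.2 and 10.1 CPM in HEK293T (3.51 ± 0.067), and the ferritin light chain FTL 2552 and 2673 CPM in H9 and 580.0 and 580.0 CPM in HEK293T (2.17 ± 0.043). GCLM, a subunit of the enzyme that starts glutathione synthesis, was higher in HEK293T, at 24 and 22.8 CPM in HEK293T and 10.1 and 9.47 CPM in H9 (−1.25 ± 0.09), as was ME1, at 11.5 and 11.3 CPM in HEK293T and 3.95 and 4.3 CPM in H9 (−1.47 ± 0.13). Metallothioneins bind metals and are induced by them. Of 8 tested genes of that list, 4 were at least 2-fold higher in H9 and 3 in HEK293T, with a median of 0.71 that turned to −0.84 when at least 5 CPM in 2 libraries was asked for. MT2A read 39.5 and 43.6 CPM in HEK293T and 10 and 9.95 CPM in H9 (−2.06 ± 0.082) and MT1X 46.9 and 48 CPM in HEK293T and 16.4 and 20.3 CPM in H9 (−1.37 ± 0.074), both higher in HEK293T. MT1E read 5.97 and 7.51 CPM in H9 and 0 and 0 CPM in HEK293T, MT1G 4.9 and 5.69 CPM in H9 and 0.0418 and 0 CPM in HEK293T and MT1F 10.2 and 8.8 CPM in H9 and 2.46 and 2.24 CPM in HEK293T, all higher in H9; the family members are close in sequence and their counts are uncertain.

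Of 30 ATF4 and integrated stress response genes, which respond to phosphorylation of eIF2, 16 were called higher in H9 and 12 higher in HEK293T, 4 in each direction by at least 2-fold, with a median of 0.16 that turned to −0.01 with upper-quartile scaling and −0.50 in the knockdown libraries. PPP1R15A, the phosphatase subunit that reverses that phosphorylation, read 255 and 275 CPM in HEK293T and 56.7 and 58.2 CPM in H9 (−2.21 ± 0.05). ATF3 read 126 and 121 CPM in HEK293T and 21.6 and 24.9 CPM in H9 (−2.41 ± 0.062) and VEGFA 98.6 and 106 CPM in HEK293T and 29.1 and 28.7 CPM in H9 (−1.82 ± 0.059). PCK2, a mitochondrial carboxykinase, was higher in H9, at 333 and 341 CPM in H9 and 78.2 and 76.3 CPM in HEK293T (2.13 ± 0.046). PHGDH, which starts serine synthesis, was not called, at 1037 and 1077 CPM in H9 and 1086 and 1079 CPM in HEK293T.

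Of 29 interferon-stimulated genes and sensors 20 passed the filter, 10 at least 2-fold higher in H9 and 4 in HEK293T, with a median of 1.15. BST2, tetherin, read 158 and 174 CPM in H9 and 0.501 and 0.598 CPM in HEK293T (8.21 ± 0.11), and IFITM3 and IFITM1, restriction factors that stem cells express without interferon, 272 and 278 CPM in H9 and 6.6 and 7 CPM in HEK293T (5.33 ± 0.065) and 183 and 182 CPM in H9 and 6.47 and 5.53 CPM in HEK293T (4.94 ± 0.07). B2M, the light chain of class I molecules, was higher in HEK293T, at 113 and 124 CPM in HEK293T and 45 and 43.4 CPM in H9 (−1.43 ± 0.056). HLA-B, a class I heavy chain, read 129 and 126 CPM in HEK293T and 31.9 and 28.9 CPM in H9 (−2.06 ± 0.058). HLA genes are polymorphic and similar to each other, and TAP1 and PSMB9 from the same stretch of chromosome 6 were at 0 counts in all 4 libraries, so levels from it are uncertain.

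Of 23 tested imprinted genes, expressed from 1 parental copy, 13 were at least 2-fold higher in H9 and 4 in HEK293T, with a median of 1.52. MEST read 119.9 and 119.8 CPM in H9 and 0.0418 and 0 CPM in HEK293T, NDN 55.4 and 56.6 CPM in H9 and 0 and 0 CPM in HEK293T and DLK1 3.14 and 4.5 CPM in H9 and 0 and 0 CPM in HEK293T. PLAGL1, a zinc finger factor, was higher in HEK293T, at 31.2 and 30.1 CPM in HEK293T and 0.988 and 0.383 CPM in H9 (−5.45 ± 0.16). DIRAS3 read 1.34 and 1.11 CPM in HEK293T and 0 and 0 CPM in H9. In the WNT list, 14 of 33 were at least 2-fold higher in H9 and 10 in HEK293T, with a median of 0.20. The antagonists SFRP1 and SFRP2 were on the H9 side, SFRP1 at 606 and 609 CPM in H9 and 18.3 and 17.2 CPM in HEK293T (5.10 ± 0.055). The WNT transcription factor LEF1, at 36.7 and 38.8 CPM in HEK293T and 0.225 and 0.478 CPM in H9, and the ligand WNT10B, at 24.8 and 20.8 CPM in HEK293T and 0.808 and 0.383 CPM in H9 (−5.22 ± 0.18), were on the HEK293T side. LRP5, a co-receptor, was not called, at 109 and 114 CPM in H9 and 120.2 and 119 CPM in HEK293T.

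Of 25 glycolysis isozymes, 7 were at least 2-fold higher in H9 and 3 in HEK293T, with a median of 0.14 that turned to −0.03 with upper-quartile scaling. The glucose transporter SLC2A3 read 487 and 479 CPM in H9 and 7.81 and 8.46 CPM in HEK293T (5.88 ± 0.061) and SLC2A1 582 and 585 CPM in H9 and 100.2 and 96.4 CPM in HEK293T (2.57 ± 0.045). LDHA, lactate dehydrogenase A, read 932 and 991 CPM in HEK293T and 423 and 436 CPM in H9 (−1.16 ± 0.043) and PKM, pyruvate kinase, 2854 and 3042 CPM in HEK293T and 1362 and 1376 CPM in H9 (−1.11 ± 0.043). Of 17 genes often used as references, 9 were called higher in H9 and 7 in HEK293T, 2 and 3 by at least 2-fold, with a median of 0.17 that turned to −0.23 in the knockdown libraries. GAPDH read 12797 and 13048 CPM in H9 and 6427 and 6262 CPM in HEK293T (1.03 ± 0.042), TUBB 236 and 240.2 CPM in H9 and 28.5 and 26.9 CPM in HEK293T (3.11 ± 0.053) and TBP 66.8 and 66.4 CPM in HEK293T and 34.5 and 33.5 CPM in H9 (−0.97 ± 0.059). TUBB lies in the stretch of chromosome 6 where many genes were listed at 0. ACTG1, a cytoplasmic actin, was not called, at 6329 and 6483 CPM in H9 and 6154 and 6024 CPM in HEK293T; its log2 fold change was 0.07 ± 0.041 here and −0.09 with upper-quartile scaling.

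**Figure D5:**
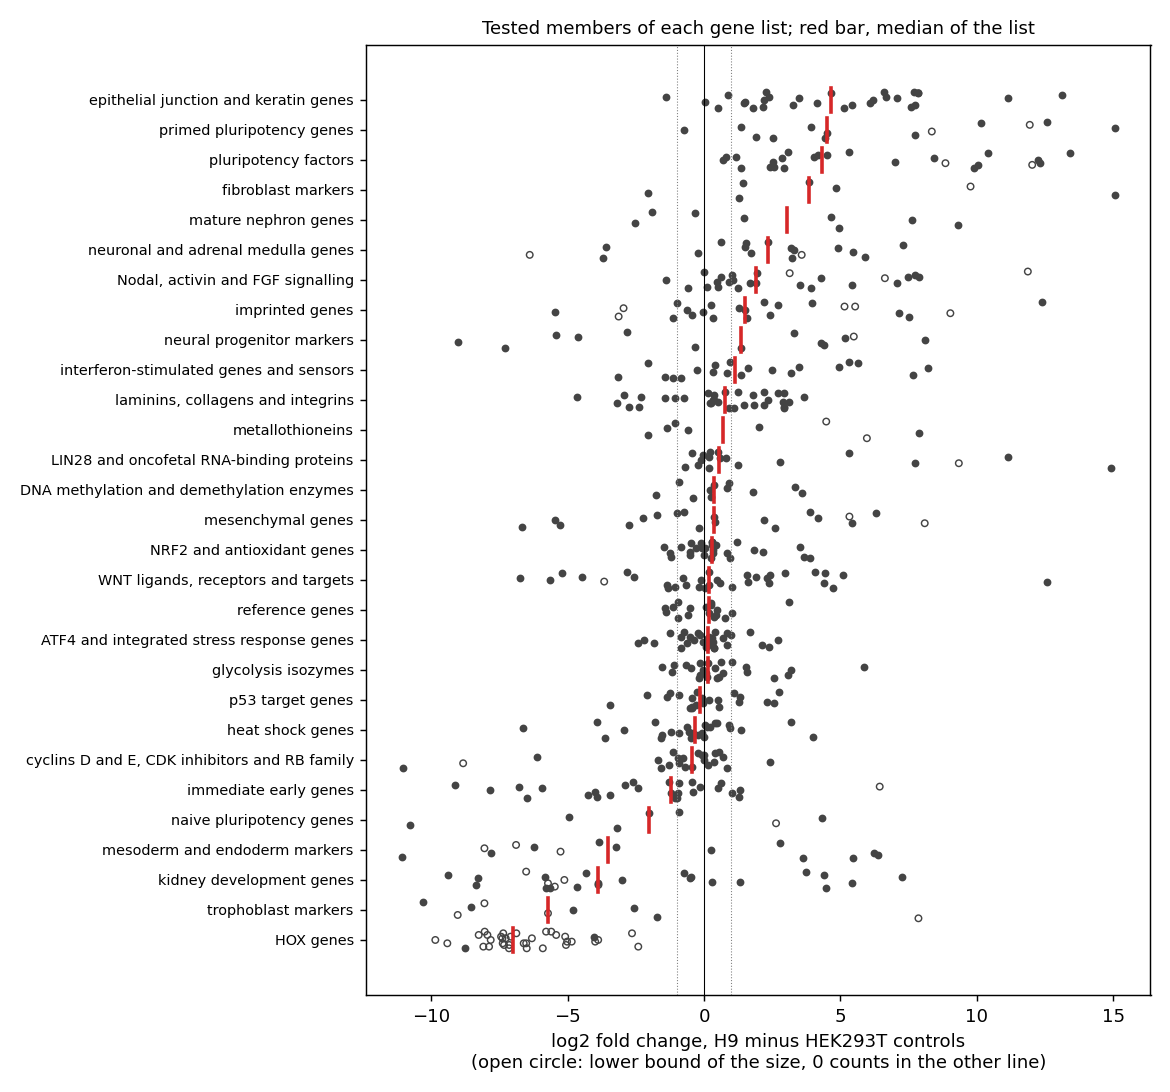
log2 fold change, H9 minus HEK293T controls (horizontal), of each tested member of the 29 gene lists, with genes at 0 counts in one line drawn as open circles at their lower bound; red bars are list medians and dotted lines mark 2-fold. Epithelial, primed and pluripotency genes have the highest medians (4.66, 4.49 and 4.33) and HOX genes the lowest (−6.99 at bound).

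Medians by chromosome were close to 0. The highest was chromosome 15 at 0.30, with chromosomes 18 (0.28), 11 (0.16), 19 (0.15) and 20 (0.15) next, and the lowest was chromosome 21 at −0.23, with chromosomes 1 (−0.21), 6 (−0.15), 13 (−0.15) and 17 (−0.06) next. The copy number of the lines was not measured here. On chromosome 15 52.8% of tested genes were called higher in H9 and 29.4% higher in HEK293T. On chromosome 21 the shares were 32.8% and 51.9%. In the knockdown libraries chromosome 15 again had a positive median, 0.50, whereas chromosome 13 moved from −0.15 to 0.43, so the order of chromosomes did not hold between the 2 sets of libraries.

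The knockdown libraries, H9 with eIF2A shRNA against arsenite-treated HEK293T with eIF2A siRNA, share no library with the controls. Of 13863 genes tested there, 3950 (28.5%) were at least 2-fold higher in H9 and 2679 (19.3%) in HEK293T by edgeR's quasi-likelihood test. Of the 3063 genes at least 2-fold higher in the H9 controls and tested in both, 2599 were so in the knockdown libraries, 84.9% of that list and 65.8% of the knockdown list. For HEK293T it was 1891 of 2523, 75% and 70.6%. Among the lists, 22 of 24 pluripotency factors were at least 2-fold higher in H9 and 36 of 36 HOX genes higher in HEK293T, the same numbers as in the controls. Members at or near 0 in one line had their direction fixed here too, so these numbers are no independent check. Epithelial genes were 28 against 0 toward H9, and trophoblast markers 7 against 1 toward HEK293T. Immediate early genes were 17 against 3 toward HEK293T. The LIN28-related list went from 7 to 11 members at least 2-fold higher in H9, LIN28B among them at a log2 fold change of 1.26.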

How the data were processed

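Per the labels' protocols, TRIzol RNA went into TruSeq Stranded mRNA libraries. The submitters' processing notes name cutadapt, STAR 2.5.2b and the build hg19; the counter, its strand setting and its annotation were not given in the sources used here. Overlapping or antisense genes may share counts. The authors deposited raw counts per RefSeq accession, 19305 accessions and 5 special counters. The counters (20.87 to 23.84% of reads in the 4 libraries) entered neither library sizes nor tests. Multiply aligned reads made up 4.16 to 4.5%, so genes with near-identical copies are uncertain. A RefSeq table named 18884 accessions and GENCODE 29 named 229; transcript lengths for RPKM came from GENCODE.

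Counts were tested with edgeR 4.0.16 (R 4.3.3): filterByExpr, TMM scaling, robust quasi-likelihood F test, two-sided, 2 residual degrees of freedom, with Benjamini-Hochberg adjustment over all 14114 genes tested. X and Y genes stayed in the fit. The script was tested on simulated data. Alternatives used DESeq2 1.42.0, limma 3.58.1 and other scalings, filters and libraries.

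The comparison, its members and the gene lists were chosen with earlier results of these data known. Named genes were 9 fixed identity genes, the 15 largest differences in each direction with a mean of at least 10 CPM in the higher line, and up to 6 called and 2 uncalled members of each list; genes named outside that rule were chosen after their values were seen. A list of 3 blood and endothelial markers and the symbol CRIPTO (for TDGF1) were added to the lists after the files were read. Lists were described by counts and medians, with no set test. Promoter windows were at hand for 10937 of 13565 tested genes (80.6%), but for under 80% of the pluripotency, HOX and line-restricted genes, so no comparison of promoters between those sets was made. Some genes that the rule names are not reported here.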

Additional observations from a re-analysis of the deposited data

How the results depend on the processing

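Genes called numbered 11335. Leaving out 1 replicate at a time gave 10647 to 11482 (5418 to 5832 higher in H9, 5229 to 5650 higher in HEK293T); with an arm of 1 library the lone library is assumed to vary like the others. At least 2-fold calls, 5646, gave 5646 to 5834 (3090 to 3229 and 2529 to 2605), and the line-restricted genes, which need every library, gave 115 to 142 for H9 and 58 to 66 for HEK293T. Set numbers were not taken to pair the libraries: only 2 pairs exist, the labels do not say what a set is, and the deviations of same-numbered sets correlated at 0.0049. With the set number as a replicate block 5718 genes were called higher in H9 and 5525 higher in HEK293T.

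With a filter of at least 5 CPM in 2 libraries, which tests fewer genes, 3629 genes were called at least 2-fold, 2004 higher in H9 and 1625 higher in HEK293T. At 5 against 0.5 CPM there were 354 H9-restricted and 148 HEK293T-restricted genes, and at 20 against 0.1 CPM 70 and 35. Upper-quartile scaling moved the median of all genes to −0.16 and the share of calls higher in H9 from 50.8 to 43.5%. DESeq2 called 5311 and 4884 genes higher in H9 and HEK293T, and limma-voom 5707 and 5523.

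Some differences changed sign, and most of these were small in the controls. IL6ST (−2.02) and MDM2 (−1.37) were not small there and changed sign in the knockdown libraries. Upper-quartile scaling gave HSF1 −0.12 and ACTG1 −0.09. Removing a trend with GC content and length gave CCNG1 0.52, HSPA4 0.14, HSF1 −0.26, NUPR1 −0.61, ACTG1 −0.20 and HMOX1 −0.10. In the knockdown libraries TUT4 was 1.61, IL6ST 0.21, ELAVL2 0.78, RBL2 0.73, E2F3 0.50, CDH2 0.72, MDM2 0.72, ZMAT3 1.05, CCNG1 1.0, HSPA4 0.52, HSF1 −0.64, NUPR1 −2.59, ACTG1 −0.49 and HMOX1 −1.06. The cause was not tested. Removing the GC and length trend also turned the list medians of mesenchymal genes to −0.02, of ATF4 and integrated stress response genes to −0.11 and of reference genes to −0.12. In the knockdown libraries the median of naive pluripotency genes was −0.59 against −2.02, of DNA methylation enzymes 1.36 against 0.38, of laminins, collagens and integrins 1.64 against 0.77 and of trophoblast markers −6.98 against −8.55.

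With 2 libraries a group and 2 residual degrees of freedom, calls lean on the spread shared across genes, and genes under the floor of 3 counts cannot be told from absent.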

Other observations

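Many genes of the major histocompatibility region were listed at 0. Of 125 listed genes that lie between HLA-F and HLA-DPB1 on chromosome 6 by their order in the RefSeq table, 56 (44.8%) had 0 counts in all 4 control libraries, against 1997 of 18255 autosomal genes (10.9%). The stretch was chosen after TAP1 and PSMB9 had been seen at 0. Broadly expressed genes were among those with few counts: DDX39B, an RNA helicase of mRNA export, had 59 and 59 counts in H9 and 0 and 1 in HEK293T, and BAG6, a chaperone of tail-anchored proteins, had 82 and 90 against 4 and 2. CSNK2B, the regulatory subunit of casein kinase 2, had 869 and 777 counts in H9 and 1 and 2 in HEK293T. PPP1R11, a phosphatase inhibitor, had 123 and 104 against 1 and 0. Differences ran the other way too: GTF2H4, a subunit of the repair and transcription factor TFIIH, had 0 and 2 counts in H9 and 131 and 200 in HEK293T, and NFKBIL1 had 0 and 0 against 233 and 303. Genes with at least 5 CPM in H9 and at most 5 counts in HEK293T made up 5 of the 125 (4%) and 1.21% of all autosomal genes; for the reverse it was 2 (1.6%) and 0.62%. How reads of this region were aligned and counted was not tested, and the line differences of POU5F1, HLA-B, HSPA1B, IER3, DDR1, TUBB and CSNK2B rest on it.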
